A study of Mus musculus with 12 samples.

Results

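This comparison asked which adipose tissue transcripts differed between C57Bl/6 mice fed a high-fat diet (HFD) for 5 days and C57Bl/6 mice kept on standard chow. It took in 8 of the 12 arrays of the series, the 4 labelled as 5 days of HFD and the 4 labelled as chow, and its members were chosen from these diet labels alone. The chow held 13% of its calories as fat and the HFD 46%. All mice were group housed with free access to food, ate chow up to 6 weeks of age, and then either stayed on it or were moved to HFD. No transgene, drug or surgery is named for either group. The other 4 arrays came from mice given HFD for 14 days and entered no difference below, but they shared in the estimate of the spread, the choice of 1 probe set per gene and the intensity filter. Each sample was read on a single-colour Affymetrix array of its own. The fat depot and the age at which chow mice were sampled are not in the labels, and by its title the series concerns insulin resistance. Nothing in the labels says that the replicates were separate animals, so p-values measure the spread between these samples only.

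White adipose tissue stores triglyceride in adipocytes, which lie in a matrix made by fibroblast-like progenitor cells and are served by a dense bed of capillaries. Visceral depots are also covered by mesothelium, a single sheet of flat epithelial cells. When the diet becomes rich in fat the tissue can enlarge by filling existing adipocytes or by forming new ones from progenitors, and its matrix, vessels and immune cells are known to be remodelled as it grows.

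The tissue label held in every array: the mean of 10 measured adipocyte markers, among them Adipoq, which encodes adiponectin, lay between 14.21 and 14.37 in all 8 arrays, in log2 signal as for every level below. The arrays of 1 group were not alike in the markers of other tissues. The mean of 6 epididymis and testis markers stood at 10.35, 10.56 and 11.12 in 5-day arrays 1 to 3, against 7.52 in 5-day array 4 and 7.61 to 8.45 in chow. Adam7, a gene of the epididymis, stood at 13.06, 13.09 and 13.29 in 5-day arrays 1 to 3, at 7.40 in 5-day array 4 and at 7.79 to 8.37 in chow. 5-day array 4 also held the highest liver marker mean, 13.20 against 9.13 to 11.43 in the other 5-day arrays and 7.95 to 11.95 in chow, and the highest endothelial mean, 11.08 against 10.22 to 10.53 in the other 7 arrays. Its control probe sets for pyruvate carboxylase, an abundant adipocyte enzyme, differed between the 3′ and 5′ ends of the transcript by 2.83, against 1.59 to 1.94 in the other 5-day arrays and 1.70 to 1.91 in chow. The same difference for Gapdh was 0.27, against 0.07 to 0.11 in the other 5-day arrays and 0.06 to 0.13 in chow. For actin it was 0.50, nearer to the other 5-day arrays (0.38 to 0.49) and chow (0.44 to 0.47). Skeletal muscle markers were high in chow array 3 (mean 12.85) and in 5-day array 2 (12.53) and smooth muscle markers in 5-day arrays 1 and 2 (11.45 and 11.43). The part of these differences in any result below was not tested unless a value is given.

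Of the 13312 genes tested, 0 passed at a Benjamini-Hochberg adjusted p under 0.05 in limma (0% of genes), and the smallest adjusted p was 0.248. Unadjusted p was under 0.05 for 1345 genes (10.1%), 590 of them higher (4.43%) and 755 lower (5.67%) after 5 days. The differences were mostly small: the median absolute difference was 0.08 on the log2 scale and 95.5% of genes differed by less than 0.5. In 1499 genes (11.3%) the 4 five-day arrays all lay outside the range of the 4 chow arrays on one side, 864 above it (6.49%) and 635 below it (4.77%). That split moved with the scaling of the arrays, to 711 above and 1008 below after quantile normalization and to 922 above and 458 below with arrays centred on a common median. The median absolute difference of the 1499 genes was 0.24, and 191 of them differed by 0.5 or more, 118 higher and 73 lower.

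How many genes passed depended on the estimate of the spread. A fit of the 8 chow and 5-day arrays alone called 213 genes, 129 higher and 84 lower, and a fit of all arrays but 14-day array 4 called 123, of which 108 were among the 213. Weighting arrays by their fit to the rest called 2015, with 5-day array 4 weighted at 0.26 and 14-day array 4 at 0.11, and 48.8% of those genes had groups that did not overlap. In all 213 genes of the first of these fits the groups did not overlap, so each was also beyond all chow arrays in 5-day array 4. Because the fit of all 12 arrays called no gene, each difference below is followed by limma's standard error (SE) on that fit, n = 4 arrays in each group, and a gene is said to hold in 5-day array 4 when that array lay beyond all 4 chow arrays on the side of the mean difference. The 15 genes of smallest p in each direction all held there. This follows in part from how they were chosen, since the p-value used that array.

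**Figure D1:**
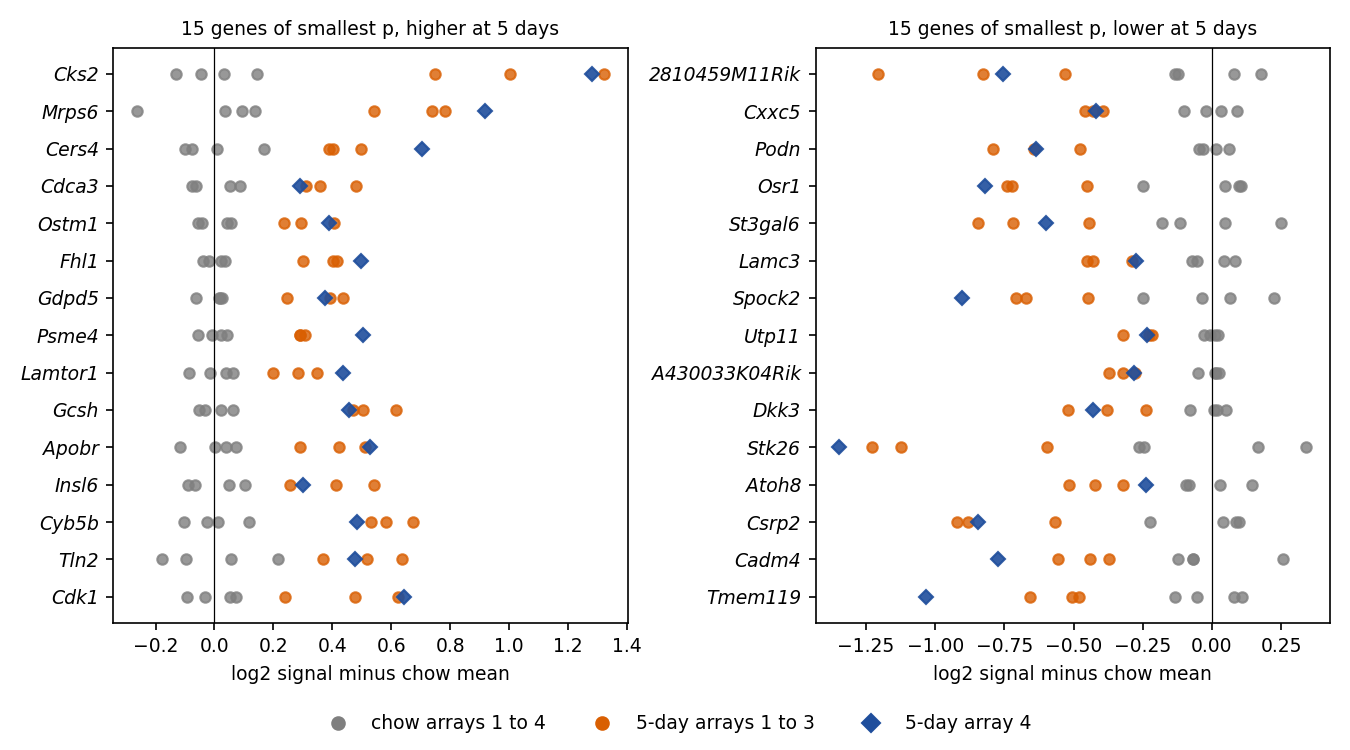
Log2 signal of each chow and 5-day array minus the chow mean (x axis) for the 15 genes of smallest p higher at 5 days (left) and the 15 lower (right), 1 gene per line. Grey points are chow arrays 1 to 4, orange points 5-day arrays 1 to 3 and blue diamonds 5-day array 4; in all 30 genes the 5-day arrays lay to one side of the chow arrays.

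Of the 15 higher genes of smallest p, 3 were cell cycle genes. Cks2, a small subunit that binds cyclin-dependent kinases, had the smallest p of the higher genes. It stood at 7.94, 8.02, 7.86 and 8.13 in chow arrays 1 to 4 and at 9.31, 8.99, 8.74 and 9.27 in 5-day arrays 1 to 4. Every 5-day array was above every chow array, and the mean was 2.13-fold higher (log2 difference 1.09 ± 0.17, limma adjusted p = 0.248, or 0.0213 in the fit of the 8 arrays alone). A second Cks2 probe set differed by 0.97. Cdk1, the kinase that drives entry into mitosis, stood at 8.38, 8.22, 8.37 and 8.28 in chow and at 8.79, 8.94, 8.55 and 8.96 after 5 days, a difference of 0.50 ± 0.11 with adjusted p = 0.311 (0.0466 in the 8 arrays alone). Its highest 5-day value was that of array 4, the array without epididymal signal. Cdca3, which promotes mitotic entry, stood at 7.59 to 7.75 in chow and at 7.96 to 8.15 after 5 days, a smaller difference of 0.36 ± 0.07 (adjusted p = 0.262), and its 2 other probe sets differed by -0.11 and 0.01. Of the 30 tested cyclin, mitosis and DNA replication genes, 20 were higher and 10 lower and 0 passed, with a median difference of 0.09 against 0.00 for all genes. The groups did not overlap in 6 of the 30, all higher, beside 6.49% of all genes. The list stood higher in 24 of 30 genes in 5-day array 4, with a median of 0.21 there and 0.06 in arrays 1 to 3. All genes tested had a median of 0.05 in array 4 and -0.02 in arrays 1 to 3, and 7723 of the 13312 stood higher in array 4. These are RNA levels of whole tissue, in which a change in the number of cells of a type and a change in the RNA per cell cannot be told apart.

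Promoters of many cell cycle genes carry CCAAT boxes and, near the start site, the cell cycle homology region read as TTTGAA or TTTAAA. The 110 bases before the start site are printed for the 3 cell cycle genes named above, to show where these letters stand in each (RefSeq, GRCm38.p6, 5′ to 3′ on the gene's strand; capitals mark CCAAT or its reverse complement ATTGG, and TTTGAA). The start sites of Cks2 and Cdk1 are the first base of the gene in RefSeq, while that of Cdca3 lies 646 bases inside the gene's RefSeq bounds.
Cks2, chr13:51645122-51645231, plus strand: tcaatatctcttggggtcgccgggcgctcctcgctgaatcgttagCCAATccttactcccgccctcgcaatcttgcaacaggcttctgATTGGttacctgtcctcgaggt
Cdk1, chr10:69352913-69353022, minus strand: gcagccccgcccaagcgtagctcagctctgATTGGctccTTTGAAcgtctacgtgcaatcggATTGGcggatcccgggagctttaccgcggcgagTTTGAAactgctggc
Cdca3, chr6:124830066-124830175, plus strand: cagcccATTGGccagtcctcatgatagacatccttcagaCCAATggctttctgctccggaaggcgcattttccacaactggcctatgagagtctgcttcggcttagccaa
Each stretch held 2 CCAAT boxes, counted on both strands. Cdk1 also held TTTGAA at 2 places, 71 and 15 bases before its start, and Cks2 held neither form of that region anywhere in its 300-base window. Cdca3 held TTTGAA outside the printed stretch, at base 31 counted from its start site. In windows of 250 bases before to 50 bases after the start, CCAAT was present in 26 of 33 genes of the list with a window (78.8%) and in 37.4% of 32851 RefSeq windows, and TTTGAA or TTTAAA in 21 of 33 (63.6%) and in 27.6%. The E-box CACGTG was in 1 of 33 (3.03%) and in 7.15% of all windows. A gene of the list counted if any of its windows held the letters, while the share of all windows counts each window singly. Genes with several windows had more chances, so the paired shares are not like measures. A match describes the letters and not the binding of any factor.

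Genes of mitochondria and of glycine metabolism were also among the 15 higher genes of smallest p. Mrps6, a protein of the small subunit of the mitochondrial ribosome, stood at 12.13, 12.03, 11.73 and 12.08 in chow and at 12.77, 12.53, 12.73 and 12.91 after 5 days, 1.68-fold higher (difference 0.74 ± 0.13, adjusted p = 0.248; 0.0289 in the 8 arrays alone). Array 4 was the highest of all 8. Mrps6 overlaps the gene of the inositol transporter Slc5a3 in RefSeq, which differed by 0.73 ± 0.19, so the 2 readings may share transcript. Gcsh, the lipoyl carrier protein of the mitochondrial glycine cleavage system, stood at 12.21, 12.17, 12.10 and 12.12 in chow and at 12.66, 12.62, 12.77 and 12.61 after 5 days. All 5-day arrays lay within a narrow band above chow (difference 0.51 ± 0.11, adjusted p = 0.304). Gcsh passed in the 8 arrays alone, at adjusted p = 0.0213, and it was the only gene called when 14-day array 2 was left out of the fit (adjusted p = 0.0157). Cyb5b, the cytochrome b5 of the outer mitochondrial membrane, differed by 0.57 ± 0.13 (adjusted p = 0.304), from 11.92 to 12.14 in chow to 12.50 to 12.69. Ndufa1, a small subunit of respiratory complex I, differed by 0.21 ± 0.06 (adjusted p = 0.347) with no overlap.

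More mitochondrial genes were higher than lower, by little and with no member passing. Of 75 mitochondrial ribosomal protein genes 49 were higher and 26 lower, with a median of 0.06 (0.03 after quantile normalization). In 13 of the 75 (17.3%) all 5-day arrays lay above chow and in 2 (2.67%) below, beside 6.49% and 4.77% of all genes. The mean of the family overlapped between the groups, at 10.65 to 10.75 in chow and 10.72 to 10.85 after 5 days. Mrpl57 and Mrpl43, of the large subunit, differed by 0.30 ± 0.09 and 0.25 ± 0.08, and the other Mrpl57 probe set by -0.02. Complex I genes were higher in 34 of 43 (27 of 43 after quantile normalization), with a median of 0.05 (0.02 after quantile normalization), 11 above all chow arrays (25.6%) and 1 below. The medians of the families were 0.12 and 0.13 in 5-day array 4 and 0.03 and 0.03 in arrays 1 to 3, where those of all genes were 0.05 and -0.02. Of 44 cytosolic ribosomal protein genes 34 were lower, with a median of -0.04, a direction that array 4 showed and the median of arrays 1 to 3 did not: in array 4 3 of 44 were higher and the median was -0.20, against 0.02 in arrays 1 to 3. Rplp2, an acidic stalk protein of the large cytosolic subunit, differed by -0.11 ± 0.04 with all 5-day arrays below chow.

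Among genes of serine, glycine and one-carbon metabolism, Psph and Shmt2 were the 2 without overlap, and both differed by less in array 4. Psph, which makes the last step of serine synthesis, stood at 9.01, 8.71, 8.71 and 8.50 in chow and at 10.53, 10.49, 10.68 and 9.21 after 5 days. Its 5-day arrays were all above chow, at 1.84 over the chow mean in arrays 1 to 3 and 0.48 in array 4 (difference 1.50 ± 0.51, adjusted p = 0.382). Shmt2, the mitochondrial serine hydroxymethyltransferase, behaved alike, at 1.23 in arrays 1 to 3 and 0.47 in array 4 (difference 1.04 ± 0.48). Gldc, the glycine decarboxylase that works with Gcsh, was picked after its values were seen. It stood at 6.97 to 7.18 in chow, at 10.48, 10.46 and 11.49 in 5-day arrays 1 to 3 and at 7.56 in array 4, so it stood 3.75 above the chow mean in arrays 1 to 3 and 0.50 above it in the array without epididymal signal. Its values in chow and in array 4 were all under the intensity filter of 7.64. Psat1, an earlier step of serine synthesis, overlapped chow in array 4 (12.38 against 12.23 to 12.49). Of the 11 tested genes of this list 7 were higher and 4 lower and 2 lay above all chow arrays (18.2%, beside 6.49% of all genes), with a median of 0.15 in all 5-day arrays and 0.06 in array 4.

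Some genes of lipid synthesis and of lysosomes were among the other higher genes of small p. Cers4, a ceramide synthase, stood at 10.91, 10.75, 10.64 and 10.66 in chow and at 11.14, 11.13, 11.23 and 11.44 after 5 days (difference 0.50 ± 0.09, adjusted p = 0.262), with array 4 highest, and its 2 other probe sets differed by 0.38 and 0.56. Of 19 ceramide and sphingolipid genes 9 were higher and 10 lower. The 5-day arrays all lay above chow in 3 (15.8%) and below in 4 (21.1%), beside 6.49% and 4.77% of all genes. Ostm1, the partner subunit of the lysosomal chloride transporter ClC-7, differed by 0.33 ± 0.06 (adjusted p = 0.277), with array 1 highest. Of 19 lysosomal protease and membrane protein genes 10 were higher and 9 lower, with a median of 0.07. In 4 of them (21.1%) all 5-day arrays lay above chow. Of 16 vacuolar proton pump subunits, which acidify lysosomes, 14 were higher, with a median of 0.09 and 3 above all chow arrays (18.8%, beside 6.49% of all genes). Psme4, the proteasome activator PA200, stood at 11.64 to 11.66 in 5-day arrays 1 to 3 and at 11.86 in array 4, against 11.30 to 11.40 in chow, while the 37 other proteasome genes tested had a median of 0.02, or -0.02 after quantile normalization. Its other 5 probe sets differed by -0.10 to 0.39, so they did not all share its direction.

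Fhl1, a LIM domain protein of muscle and other cells, stood at 12.96 to 13.03 in chow and at 13.30 to 13.49 after 5 days, a difference of 0.40 ± 0.08 (its other probe set 0.10), and was highest in array 4. The skeletal muscle marker mean of that array was 9.40, within the range of chow (8.17 to 12.85) and of 5-day arrays 1 to 3 (8.61 to 12.53). Gdpd5, a glycerophosphodiester phosphodiesterase, differed by 0.36 ± 0.08, Tln2, the second talin, by 0.50 ± 0.11, Apobr, a receptor for apolipoprotein B48, by 0.44 ± 0.10, and Insl6, an insulin-like peptide, by 0.38 ± 0.08. Adjusted p for these 4 ran from 0.304 to 0.305. All passed in the 8 arrays alone but Insl6 (adjusted p = 0.0596), as did 14 of the 15 higher genes of smallest p in all. That fit called 213 of all 13312 genes. It used the same chow and 5-day arrays on which these 15 were ranked, so their passing follows in part from how they were chosen.

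Several lower genes of smallest p encode matrix or progenitor proteins. The smallest p of all tested genes was that of 2810459M11Rik, a gene of unnamed function, at 9.39, 9.18, 9.48 and 9.18 in chow and 8.10, 8.78, 8.48 and 8.55 after 5 days (1.78-fold lower, difference -0.83 ± 0.12, adjusted p = 0.248). Podn, the matrix proteoglycan podocan, stood at 12.06, 11.96, 12.01 and 11.95 in chow and at 11.20, 11.35, 11.52 and 11.36 after 5 days, 1.56-fold lower (difference -0.64 ± 0.11, adjusted p = 0.248; 0.0213 in the 8 arrays alone). Its 4 chow arrays lay close together and no 5-day array reached them. Osr1, a transcription factor of mesenchymal progenitors, differed by -0.68 ± 0.12 (adjusted p = 0.248) and was lowest in array 4, at 9.91 against 10.48 to 10.83 in chow. Spock2, a matrix proteoglycan, also had its lowest value in array 4, 10.09 against 10.74 to 11.22 in chow (difference -0.68 ± 0.13). Lamc3, a laminin chain, differed by -0.36 ± 0.06 and Dkk3, a secreted member of the Dickkopf family, by -0.39 ± 0.08, with a second Dkk3 probe set at -0.71. Stk26, a protein kinase, had the largest difference of the 15, at 10.18, 10.79, 10.21 and 10.62 in chow and 9.85, 9.32, 9.22 and 9.10 after 5 days (2.11-fold lower, -1.07 ± 0.22, adjusted p = 0.303), with its other probe set at -1.05.

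Transcriptional and membrane genes made up the rest of the 15. Cxxc5, a CXXC zinc finger protein known as a Wnt pathway inhibitor, stood at 9.86 to 10.05 in chow and at 9.57, 9.51, 9.53 and 9.54 after 5 days, so the 5-day arrays lay closer together than the chow arrays (difference -0.43 ± 0.07, adjusted p = 0.248). Atoh8, a basic helix-loop-helix factor, differed by -0.37 ± 0.08, Csrp2, a LIM protein of mesenchymal cells, by -0.80 ± 0.16 and Tmem119, a membrane protein, by -0.67 ± 0.14. St3gal6, a sialyltransferase, stood at 9.98 to 10.41 in chow and at 9.31 to 9.71 after 5 days (difference -0.65 ± 0.11). The adhesion molecule Cadm4 differed by -0.54 ± 0.11, the ribosomal processing factor Utp11 by -0.25 ± 0.05 and A430033K04Rik, of unnamed function, by -0.31 ± 0.06. In the 8 arrays alone 13 of the 15 passed, and Atoh8 (adjusted p = 0.0661) and Cadm4 (0.0581) did not. The 15 were ranked on these same arrays, so their passing follows in part from how they were chosen.

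Mesothelial markers were lower in 10 of 11 genes and higher in 1, with array 4 lowest of all. The mean of the 11 markers was 10.47 to 10.72 in chow and 9.73 to 10.31 after 5 days, with array 4 at 9.73, so the groups did not overlap. All 11 were below the chow mean in array 4, where their median difference was -0.91, against -0.54 in arrays 1 to 3, and in 8 of the 11 (72.7%, beside 4.77% of all genes) all 5-day arrays were below all chow arrays. Wt1, a transcription factor of mesothelium, stood at 9.84, 9.87, 9.90 and 9.97 in chow and at 9.26, 9.28, 9.28 and 9.06 after 5 days (difference -0.68 ± 0.19, adjusted p = 0.347; 0.0213 in the 8 arrays alone). Bnc1, basonuclin, differed by -0.93 ± 0.26 and the membrane glycoprotein Gpm6a by -0.82 ± 0.26, each lowest or next to lowest in array 4. The 6 genes that were lower by 1 or more without overlap were Stk26, described above, and Slpi, Rspo1, Cdh11, Dmkn and Acsm3, of which all but Stk26 and Dmkn were picked after their values were seen. Slpi, a secreted protease inhibitor, stood at 12.93 to 13.43 in chow and at 12.60, 12.09, 12.19 and 11.96 after 5 days (difference -1.01 ± 0.27). Rspo1, an activator of Wnt signalling, differed by -1.09 ± 0.34, Cdh11, cadherin 11 of mesenchymal cells, by -1.06 ± 0.27, Dmkn, dermokine, by -1.17 ± 0.49 and Acsm3, a mitochondrial medium-chain acyl-CoA synthetase, by -1.09 ± 0.25. Their adjusted p lay between 0.311 and 0.46.

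Among 13 progenitor and fibroblast markers 10 were lower, 3 lay below all chow arrays (23.1%, beside 4.77% of all genes) and 1 above, and the list's median was -0.15. Pdgfra, the receptor that marks adipocyte progenitors, stood at 11.23, 11.60, 11.47 and 11.59 in chow and at 11.18, 11.02, 10.92 and 10.84 after 5 days, with array 1 just under the lowest chow array (difference -0.48 ± 0.12, adjusted p = 0.331). Its 2 other probe sets differed by less, -0.285 and -0.14. Clec3b, tetranectin, differed by -0.54 ± 0.15 and Dcn, decorin, by -0.20 ± 0.10, both lowest in array 4. Fbln1, the matrix protein fibulin 1, stood at 10.48 to 10.68 in chow, at 9.72 to 10.11 in 5-day arrays 1 to 3 and at 9.15 in array 4 (difference -0.83 ± 0.21, its 2 other probe sets -0.61 and -0.17). Cxadr, a cell junction receptor, showed the same order, with 7.51 in array 4 against 9.07 to 9.40 in chow. Its 4 other probe sets differed by -0.67 to 0.13, so they did not all share its direction. Collagens did not share this direction. Of 34 tested collagen genes 18 were higher and 16 lower. The 8 without overlap (23.5%, beside 6.49% of all genes above chow) were all higher. Among them were Col4a1 of basement membranes (0.33 ± 0.11), Col5a3 (0.76 ± 0.28, its other probe set 0.06) and Col6a2 (0.54 ± 0.22). In these 3 array 4 was highest, at 14.41, 13.09 and 13.40, whereas over the list 14 genes were higher and 20 lower in that array, with a median of -0.05 against 0.03 in arrays 1 to 3. Among 15 matrix metalloproteinases and inhibitors 13 were lower (median -0.17) and 2 lay below all chow arrays (13.3%, beside 4.77% of all genes). One of them was Mmp14, the membrane-bound collagen-cleaving protease, at -0.30 ± 0.12.

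Growth factor and complement genes were among the lower genes without overlap. The insulin-like growth factor axis was lower in 9 of 12 genes, with a median of -0.13. Igf1, which encodes insulin-like growth factor 1, stood at 12.76, 12.88, 12.79 and 12.81 in chow and at 12.24, 12.27, 12.30 and 12.62 after 5 days (1.36-fold lower, difference -0.45 ± 0.17, adjusted p = 0.434; 0.0435 in the 8 arrays alone). It held in array 4, at a smaller distance from the chow mean (-0.18) than in arrays 1 to 3 (-0.54), and its 3 other probe sets differed by -0.45 to -0.42. The binding proteins Igfbp2 and Igfbp3 differed by -0.66 ± 0.25 and -0.32 ± 0.12 with overlap. Gas6, the ligand of the TAM receptor kinases, stood at 12.59, 12.89, 12.64 and 12.80 in chow and at 12.15, 11.83, 12.15 and 11.83 after 5 days (difference -0.74 ± 0.16, adjusted p = 0.304). Its second probe set differed by less, -0.19. C1ra, a protease of the first complement complex, differed by -0.62 ± 0.15 and C2, a protease of the classical pathway, by -0.54 ± 0.12, with 2 other C2 probe sets at -0.66 and -0.65. Cd14, the lipopolysaccharide co-receptor of myeloid cells, stood at 10.75 to 11.01 in chow and at 10.32 to 10.39 after 5 days (difference -0.54 ± 0.13). Among 12 macrophage markers 11 were lower, but only Cd14 lay below all chow arrays, and the list mean was 11.22 to 11.46 in chow and 11.01 to 11.30 after 5 days. Chrdl1, a secreted BMP antagonist, differed by -0.73 ± 0.18, and 28 of 41 BMP and TGF-beta genes were lower. In array 4 that turned, with 25 of the 41 higher and a median of 0.05, against -0.11 in arrays 1 to 3.

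Of the 10 higher genes with the widest gap between groups, only Cks2 was also among the 15 of smallest p. C4bp, an inhibitor of complement, stood at 6.21, 6.30, 8.33 and 6.48 in chow and at 11.04, 10.98, 10.78 and 9.40 after 5 days (13.2-fold higher, difference 3.72 ± 1.14, adjusted p = 0.354; 0.0293 in the 8 arrays alone). Its chow array 3, which also carried liver transcripts, was its highest chow array, and array 4 its lowest 5-day array. Car4, a membrane-bound carbonic anhydrase, stood at 10.59 to 11.18 in chow and at 12.19, 12.14, 12.57 and 11.92 after 5 days (difference 1.23 ± 0.45), and its second probe set differed by 1.20. Tm7sf2, a sterol reductase of cholesterol synthesis, differed by 1.13 ± 0.36 with array 4 at 0.98. Cyp4a12a, a fatty acid hydroxylase, differed by 1.36 ± 0.48, Cpn1, the catalytic subunit of carboxypeptidase N, by 1.51 ± 0.62 and Mbnl3, a splicing factor, by 1.13 ± 0.48. Their other probe sets differed by less, 0.06 for the 1 of Cpn1 and 0.35 for each of the 2 of Mbnl3. Gamt, which makes creatine, stood at 9.47 to 10.03 in chow and at 10.53 to 10.84 after 5 days (difference 1.01 ± 0.33). In these 7 genes, array 4 held with a smaller difference than arrays 1 to 3 showed. Wfdc21, a WAP domain protein, and Orm1, the acute phase protein orosomucoid, were the reverse: array 4 was their highest 5-day array, at 13.35 and 13.59 (differences 1.15 ± 0.35 and 0.79 ± 0.30). Adjusted p for the 10 genes of widest gap ran from 0.248 to 0.470, and all 10 passed in the 8 arrays alone. That follows in large part from how they were chosen, since the gap was read on the same 8 arrays. The chow means of C4bp (6.83), Cpn1 (7.14) and Mbnl3 (7.46) were under the intensity filter of 7.64. These 3 therefore entered the test through the high-fat arrays. Cyp4a12a, Orm1 and, among the lower genes, C1ra have near-identical copies in the mouse genome, whose RNA their probe sets may also read.

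Most of the largest higher differences did not hold in array 4. Of the 37 genes that were higher by 2 or more, 4 held there, namely C4bp, Gldc, Fga and Smarcd3, and in the other 33 array 4 lay between -1.11 and 0.15 from the chow mean. In 31 of those 33 the other three 5-day arrays all lay above chow. The chow mean was under the intensity filter of 7.64 in 26 of the 37, and in 24 of them array 4 was too, so these entered the test through the arrays in which they were high and their count is a description only. Gldc was 1 of the 24, with a chow mean of 7.06 and 7.56 in array 4. Its holding there thus rests on readings under the filter. Spink10, a serine protease inhibitor, had the largest difference, with 12.70, 12.59 and 13.05 in 5-day arrays 1 to 3, 5.46 in array 4 and 5.69 to 5.77 in chow. With that spread its difference was 5.22 ± 1.96 (adjusted p = 0.414). The epididymal gene Spink8 and the sperm gene Smcp were alike, at 6.77 and 4.99 in arrays 1 to 3 and at -0.38 and 0.04 in array 4. Serpina1f (6.48 and -0.15), Ceacam10 (5.92 and 0.15), Glb1l3, Gm4988, BC048679 and Wfdc15b completed 9 of the 10 largest. Gpx5, another gene of the epididymis, differed by -0.02 ± 0.16, a sign that turned when chow array 3 or 5-day array 1, 3 or 4 was left out. Fga, a fibrinogen chain made by liver, held in array 4 at 13.21, with 9.33 to 11.10 in arrays 1 to 3 and 6.30 to 11.39 in chow, so its group ranges overlapped, and liver markers were highest in that array. Smarcd3, a chromatin remodelling subunit picked after its values were seen, stood at 9.48 in array 4, barely above the highest chow array (9.04 to 9.46), and at 11.76 to 12.35 in arrays 1 to 3.

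In the 10 largest lower differences chow array 1 stood below the other chow arrays. The genes were Slc7a9, Cldn2, Mmp7, Tmem212, Bex1, Dynlrb2, Calml4, B4galnt2, Ppil6 and Foxj1, the last of these the regulator of motile cilia. Foxj1 stood at 8.08, 10.33, 9.84 and 10.11 in chow and at 8.84, 7.95, 7.71 and 8.35 after 5 days (difference -1.38 ± 0.57, adjusted p = 0.459). Chow array 1 was the lowest chow array in all 10 genes, with a mean of 7.65 against 10.32 to 10.99 in the other three. Every 5-day array, array 4 included, lay below chow arrays 2 to 4 in all 10. Slc7a9, an amino acid transporter subunit, stood at 7.57, 11.09, 10.16 and 10.75 in chow and at 8.99, 7.27, 7.60 and 8.05 after 5 days (difference -1.91 ± 0.83, adjusted p = 0.479). For Bex1 chow array 1 was lower than every 5-day array (6.31, 11.24, 10.59 and 11.20 in chow, 6.90 to 9.48 after 5 days). Without chow array 1 all 10 differences were larger, between -1.88 and -2.78, and 3 of them by over 1.5 times: Bex1 went from -1.61 to -2.78, Cldn2 from -1.72 to -2.65 and Ppil6 from -1.40 to -2.11. That all 10 grew was fixed in advance, since chow array 1 was the lowest chow array in each. None of the 10 was without overlap, and what sets chow array 1 apart in these genes was not tested.

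**Figure D2:**
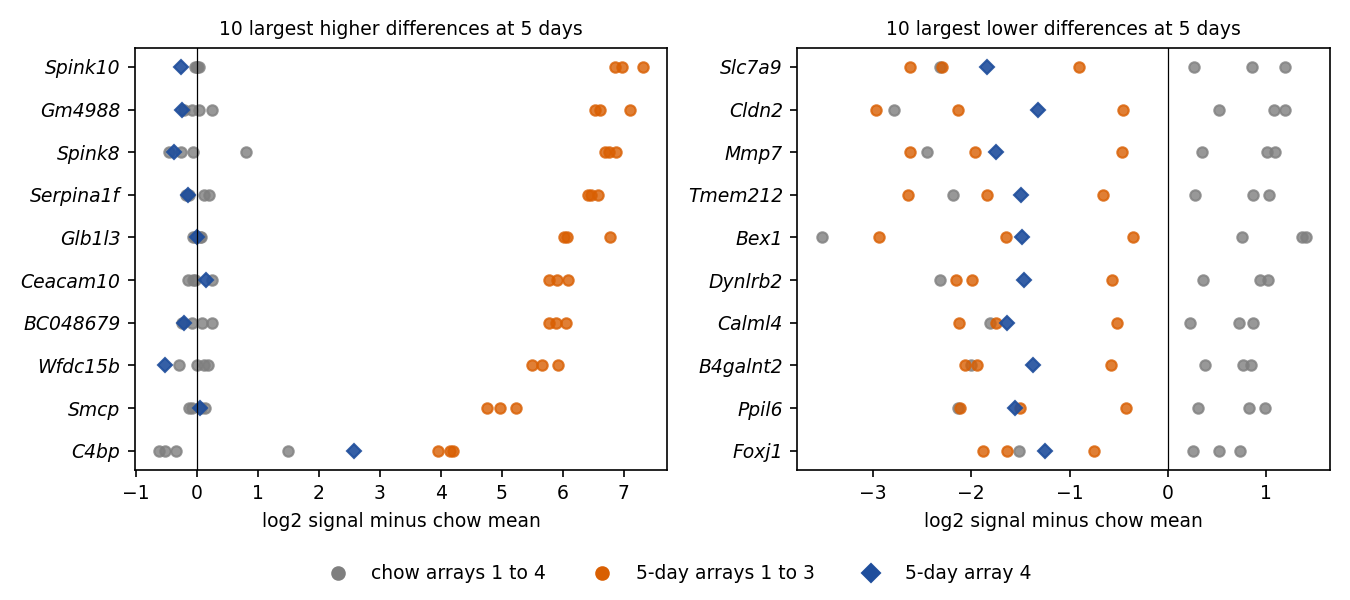
Log2 signal of each array minus the chow mean (x axis) for the 10 largest higher differences (left) and the 10 largest lower differences (right). On the left 5-day array 4 (blue diamonds) lay with the chow arrays (grey) in 9 genes and between the groups for C4bp; on the right chow array 1 is the grey point far below the other chow arrays.

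Over all genes, the share that held in array 4 differed with the size of the difference in arrays 1 to 3; both are read against the same 4 chow arrays. Over all 13312 genes array 4 lay above all chow arrays in 42.7% and below them in 24.6%, which are the shares to read the following against. Of the genes that were higher than chow by 0.25 to 0.5 on average in arrays 1 to 3, 316 of 559 (56.5%) lay above all chow arrays in array 4. The share was 119 of 293 (40.6%) at 0.5 to 1, 22 of 102 (21.6%) at 1 to 2, 5 of 44 (11.4%) at 2 to 4 and 1 of 22 (4.55%) at 4 or more. Lower genes held in 342 of 853 (40.1%) at 0.25 to 0.5, 107 of 186 (57.5%) at 0.5 to 1 and 4 of 28 (14.3%) at 1 to 2. In that last band array 4 lay at a median of -1.21 from the chow mean. It was thus mostly low there too, without passing the lowest chow array. In the higher bands from 1 up, the median in array 4 was -0.11, -0.32 and -0.24, so the difference was absent there. Among higher genes only the band of 0.25 to 0.5 was above the share of all genes, and among lower genes the bands up to 1 were. Of the 133 genes higher by 1 or more over all 5-day arrays, 38 held in array 4, and of the 30 lower by 1 or more, 10 did.

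**Figure D3:**
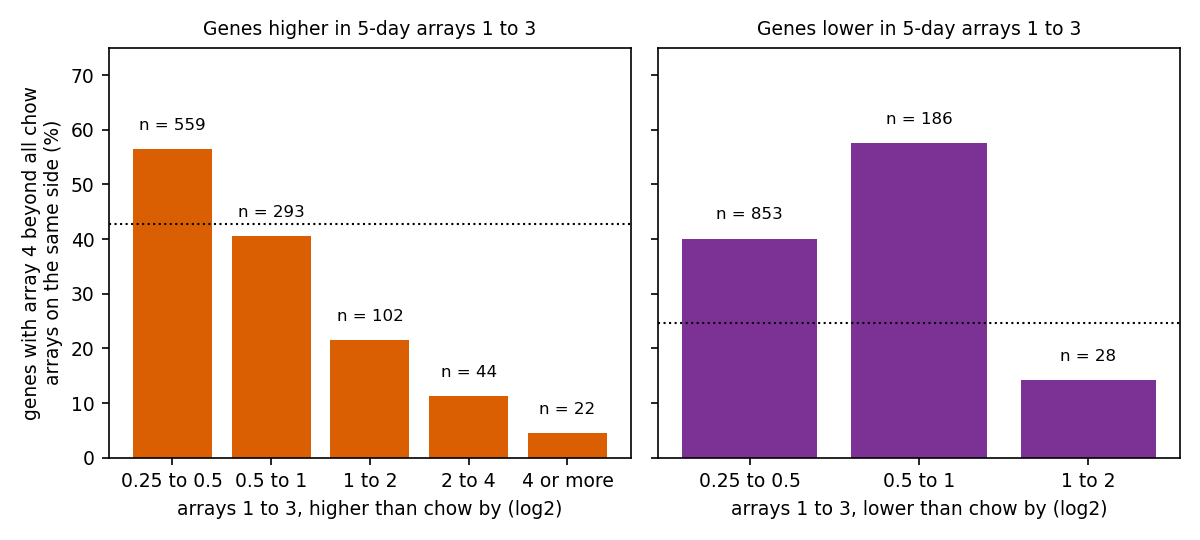
Share of genes (y axis, %) for which 5-day array 4 lay beyond all 4 chow arrays on the same side, by the mean difference of 5-day arrays 1 to 3 from chow (x axis, log2), for higher (left) and lower genes (right), with the number of genes above each bar and a dotted line at the share of all genes (42.7% above and 24.6% below). The share falls from 56.5% to 4.55% over the 5 bands of higher genes and is highest, 57.5%, in the middle band of lower genes. In the last band of lower genes the median difference in array 4 was -1.21.

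Array 4 was the 5-day array that most often went its own way. It lay outside the chow range in 67.3% of all genes, against 51.3%, 56.6% and 54.7% for arrays 1 to 3. Where the other three 5-day arrays were all above chow, array 4 was too in 864 of 1498 genes (57.7%) and was below all chow arrays in 260. The same share was 95.6% for array 1, 62.3% for array 2 and 77.6% for array 3. Where the other three were all below chow, array 4 joined them in 635 of 1743 genes (36.4%) and was above all chow arrays in 551, against shares of 70.2%, 78.4% and 82.6% for arrays 1 to 3. Leaving out array 4 therefore raised the genes without overlap from 1499 to 3241. Within the 864 higher genes without overlap, array 4 was further from chow than the mean of the other three in 482 (55.8%), and within the 635 lower genes in 265 (41.7%). Endothelial genes were among those that stood high in array 4 alone. All 10 endothelial markers were above the chow mean there, with a median of 0.61 against -0.07 in arrays 1 to 3. Cdh5, the cadherin of endothelial junctions, stood at 11.98 in array 4 against 10.88 to 11.14 in arrays 1 to 3 and 10.69 to 11.06 in chow, and Tie1 at 10.66 against 9.47 to 9.69 and 9.30 to 9.72.

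**Figure D4:**
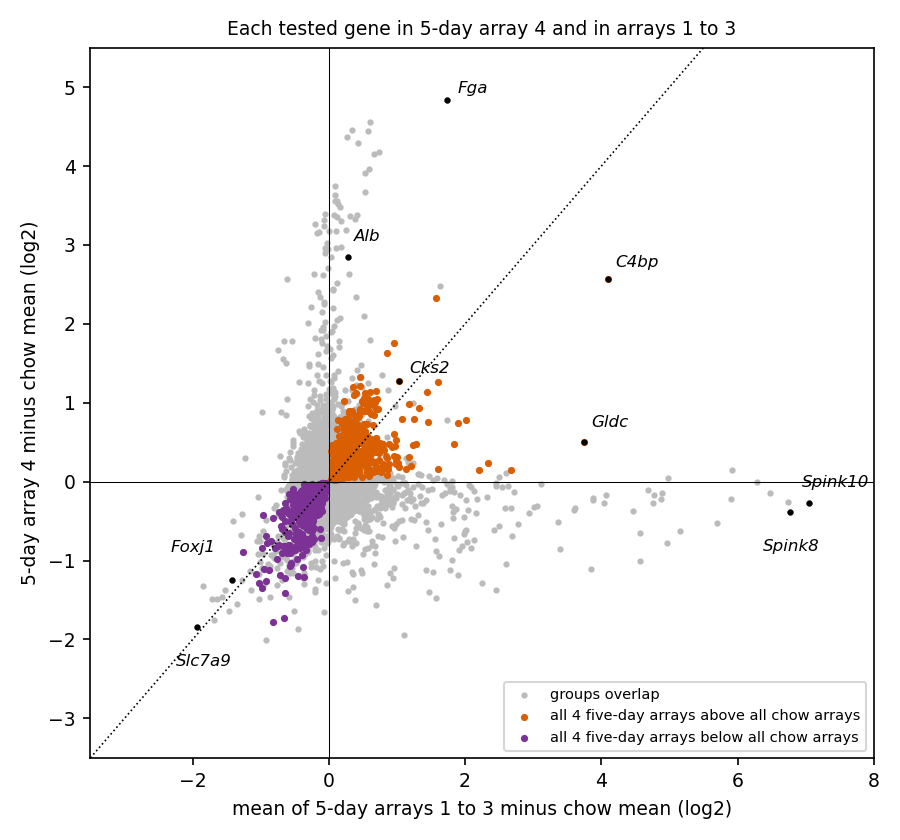
Difference from the chow mean in 5-day array 4 (y axis, log2) against the mean difference of 5-day arrays 1 to 3 (x axis, log2), 1 point per tested gene, with orange and purple points for the 864 and 635 genes whose 5-day arrays all lay above or all below chow. Spink8 and Spink10 lie far right at 0 or below in array 4, Fga and Alb lie high in array 4, and Cks2 lies near the dotted line of equal difference.

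Among other gene families, the means of cholesterol synthesis genes and of clock genes did not overlap between the groups. This was not particular to them. The means of the vacuolar proton pump and the serine, glycine and one-carbon lists were also higher without overlap. So was the cell cycle mean, narrowly, at 9.01 to 9.09 in chow and 9.10 to 9.30 after 5 days. The means of chaperonin subunits, mesothelial markers and mast cell markers were lower without overlap. Cholesterol synthesis genes were higher in 18 of 19, with a median of 0.22 (0.21 in array 4), and 7 of the 19 (36.8%, beside 6.49% of all genes) lay above all chow arrays. Their mean was 9.80 to 9.97 in chow and 10.15 to 10.22 after 5 days. The median of 15 clock genes was -0.22, with 12 lower and 4 below all chow arrays (26.7%, beside 4.77% of all genes). Their mean was 10.65 to 10.68 in chow and 10.39 to 10.61 after 5 days, and in array 4 the median was -0.11, with 7 of the 15 higher. Hox genes were split evenly, 9 higher and 9 lower, but stood below the chow mean in 17 of 18 genes in array 4. The 4 without overlap (22.2%, beside 4.77% of all genes below chow) were all lower, among them Hoxc4, a positional homeobox gene (-0.30 ± 0.12). Semaphorins and plexins, guidance molecules and their receptors, were lower in 21 of 28 (median -0.11), and 3 of the 28 were without overlap (10.7%, beside 11.3% of all genes), 1 below and 2 above chow. All 7 tested chaperonin subunits, which fold actin and tubulin, were lower, with a median of -0.09 and 2 below all chow arrays (28.6%, beside 4.77%). Among 16 nucleotide synthesis genes 13 were lower and 3 lay below all chow arrays (18.8%, beside 4.77%). No member of any of these lists passed in the fit of all 12 arrays.

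**Figure D5:**
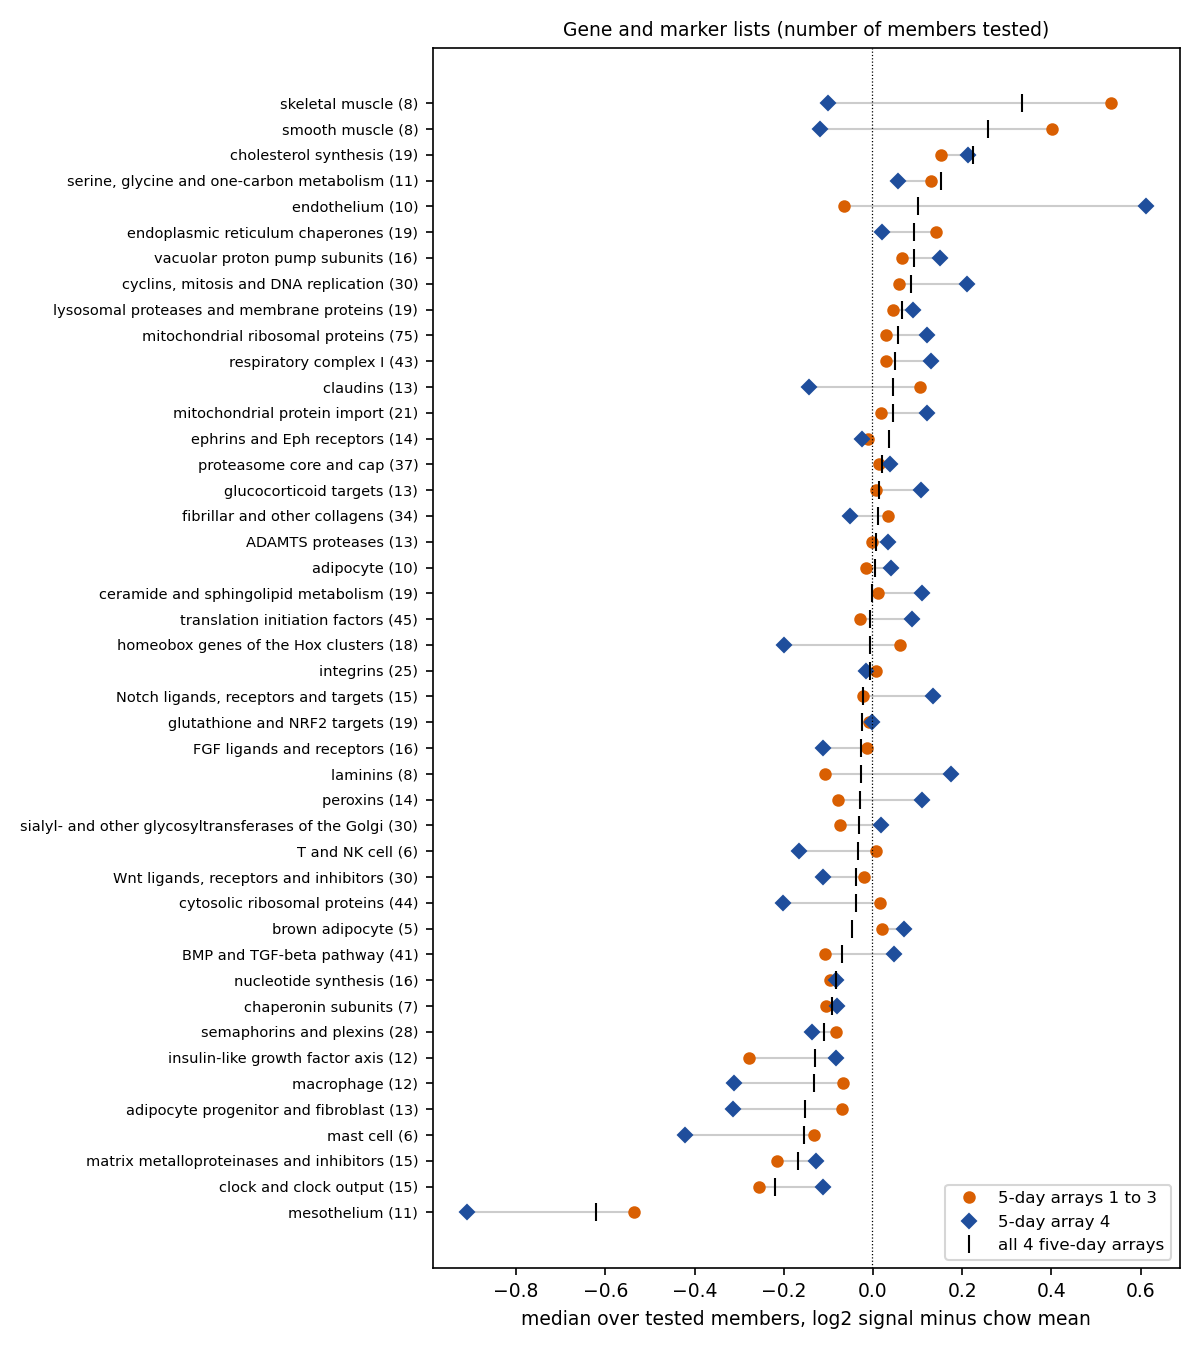
Median log2 difference from chow over the tested members of each gene or marker list (number tested in parentheses), in 5-day arrays 1 to 3 (orange points), in 5-day array 4 (blue diamonds) and over all 4 five-day arrays (black bars); the dotted line is the median of all genes. Liver, epididymis and testis markers, whose medians lie far to the right, and lists with fewer than 5 tested members are not drawn; mesothelial markers were lowest in array 4, at -0.91, and endothelial markers highest, at 0.61.

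Genes that define adipocyte function overlapped between the groups or differed by little. Lep, which encodes the satiety hormone leptin, stood at 12.58, 12.06, 11.81 and 12.41 in chow and at 12.69, 12.41, 12.70 and 13.01 after 5 days (difference 0.49 ± 0.29, adjusted p = 0.597). Mest and Sfrp5, whose RNA is known to follow fat mass expansion, differed by 0.68 ± 0.31 and 0.59 ± 0.45, with array 4 highest of the 8 for all 3 genes (13.01, 13.23 and 10.73). Adipoq was below all chow arrays in every 5-day array, by -0.04 ± 0.04, at a signal near the top of the scale. Scd1, the stearoyl-CoA desaturase, was likewise near the top of the scale and higher by 0.04 ± 0.03 without overlap. Fasn, fatty acid synthase, differed by -0.01 ± 0.23, a sign that turned with arrays centred on a common median, with array weights and without chow array 1 or 5-day array 3. The insulin-responsive glucose transporter Slc2a4 differed by 0.10 ± 0.16. Of genes of inflammation, the macrophage marker Adgre1 differed by -0.10 ± 0.23, Ccl2, a monocyte chemokine, by -0.13 ± 0.18 and Tnf, tumour necrosis factor, by -0.09 ± 0.08, all with overlap. Ucp1, the uncoupling protein of brown adipocytes, was under the intensity filter, at 6.91 to 7.35 in chow and 7.15 to 7.27 after 5 days.

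Further probe sets of the named genes gave a reading of their own of the same RNA. For the 15 higher genes of smallest p, 9 had other probe sets, and 15 of these 18 differed in the same direction, 13 of 14 among those above the filter. For the 15 lower genes, all 12 other probe sets of 8 genes were also lower. With all probe sets of a gene averaged, 16 of 46 named genes with further probe sets differed by less by over 1.5 times, among them St3gal6 (-0.65 to -0.33), Cxadr (-0.93 to -0.47), Gas6 (-0.74 to -0.47), Mbnl3 (1.13 to 0.61), Col5a3 (0.76 to 0.41), Psme4 (0.35 to 0.16), Mrpl57 (0.30 to 0.14) and Utp11 (-0.25 to -0.13). Probe sets of 1 gene share the RNA sample, so this describes the measurement and not a second sample. Of 3451 probe sets without a gene symbol, 0 passed (0%) and 209 had an unadjusted p under 0.05 (6.06%). The probe set 1440490_at came closest, at 8.17, 8.19, 8.19 and 8.32 in chow and 7.72, 7.66, 7.56 and 7.47 after 5 days, a difference of -0.62 ± 0.09 (adjusted p = 0.0506 over these probe sets), followed by 1440608_at at -0.38 ± 0.06 (adjusted p = 0.0915). Both were lower in all 4 five-day arrays, array 4 included.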

How the data were processed

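The authors deposited 1 table of log2 values for 45098 probe sets in 12 arrays; how probes were summarised and arrays normalised is not given in the sources used here, and the log2 scale was judged from the values, which began at 4.18 with array medians of 8.09 to 8.14. No renormalisation was done. Names came from the platform annotation: 34945 probe sets had 1 symbol, 932 several (not used), 9160 none (tested apart) and 61 were controls. Of the named, 34741 matched RefSeq by Entrez ID. For each of 18193 genes the probe set with the highest 12-array mean was kept, and a gene was tested where that mean reached 7.64, the 40th percentile over probe sets (13312 genes). One limma 3.58.1 model (R 4.3.3, lmFit and eBayes with trend) covered the 3 diet groups, with 5 days minus chow as the contrast, two-sided p-values and Benjamini-Hochberg adjustment over all 13312 genes. The procedure was tested on simulated data. Arrays give no counts, so their number, 4 per group, limits the precision.

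Named genes were the 15 of smallest p, the 10 of largest difference and the 10 of widest gap between non-overlapping groups in each direction, up to 3 members of smallest p per list, and 15 genes of interest; Gldc, Slpi, Rspo1, Cdh11, Acsm3, Smarcd3 and Slc5a3 stand outside this rule and were chosen after their values were seen. The comparison, its members and the 50 gene and marker lists were chosen with earlier results of these data known. Same-numbered arrays of the groups did not deviate together. Alternatives covered scaling, filters, probe set choice, variance model, array weights, the arrays fitted, the replicate block and leaving out each array.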

Additional observations from a re-analysis of the deposited data

Results flagged for a closer look

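In 264 groups of 4 chow or 5-day arrays, 28 had an array far from the other three by Dixon's test for 4 samples, which chance gives in about 1 group in 20. The groups were those of named genes and marker lists, many chosen for their differences and moving together. They are not independent, so the 28 cannot be read against that rate. Of the 28, 16 were 5-day array 4. That array was set apart beforehand by its lack of Adam7 signal. Its flags on Adam7 and on genes that share that pattern were therefore fixed in advance. Among the largest higher differences and Adam7 that array was the low one: Spink10 5.46, Gm4988 5.66, Spink8 7.20, Serpina1f 6.11, Glb1l3 5.76, Ceacam10 5.78, BC048679 6.98, Wfdc15b 7.35, Smcp 7.64 and Adam7 7.40. It was also the low array for Psph (9.21), C4bp (9.40) and Wt1 (9.06) and the high one for Psme4 (11.86), Col4a1 (14.41) and the endothelial marker mean (11.08). Chow array 1 stood low for Cldn2 (8.05), Bex1 (6.31), B4galnt2 (6.96), Osr1 (10.48) and A430033K04Rik (8.17). Chow array 3 stood high for C4bp (8.33) and the skeletal muscle marker mean (12.85) and low for Col4a1 (13.63). Single arrays stood apart for Gdpd5 (chow array 4, 9.06), Cadm4 (chow array 2, 9.91), Clec3b (chow array 2, 10.91) and Rspo1 (5-day array 1, 10.22). What sets these arrays apart was not tested.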

How the results depend on the processing

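The count of called genes was 0 with both other scalings, without a filter and with a stricter one, with probe sets averaged or taken singly, without a trend, with the robust form, at an adjusted p under 0.1, with the replicate block and without any one chow or 5-day array. It was 2015 with array weights and 213 in the fit of chow and 5-day arrays alone. Leaving out 1 array in turn gave 0 to 123 called genes, 123 without 14-day array 4 and 1 without 14-day array 2. Genes with unadjusted p under 0.05 numbered 4088 with array weights and 2428 in chow and 5-day arrays alone, and 855 (without chow array 2) to 2265 (without 14-day array 4) with 1 array left out. Genes without overlap numbered 1753 to 3241 with 1 array left out, 2326 without chow array 1 and 3241 without 5-day array 4. With the replicate block 1129 genes had an unadjusted p under 0.05 and the smallest adjusted p was 0.310. Deviations of same-numbered arrays correlated at -0.06, -0.35, -0.43 and 0.00, so no pairing by number was seen. Such correlations over all genes cannot show whether same-numbered arrays shared a cage, day or batch. Of 2504 alternative values for 115 named genes, 2318 kept direction and side of the threshold, 177 newly passed it and 9, of 3 genes, turned in sign. Fasn turned to 0.0018 with median-centred arrays, 0.0081 with array weights, 0.072 without chow array 1 and 0.029 without 5-day array 3 (-0.096 to 0.072 with 1 array left out). Alb turned to -0.17 with array weights. Gpx5 turned to 0.12 without chow array 3, 0.062, 0.024 and 0.012 without 5-day array 1, 3 and 4. The cause of these shifts was not tested. With 4 arrays per group, a gene not called was not shown to be alike in the groups.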
